A study of Oryza sativa with 12 samples.

Results

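The genes described here are the metal homeostasis genes of rice that the array annotation names as members of the ZIP, NRAMP, YSL, IRT, NAS, NAAT, FRO, MTP, HMA, VIT, FER or IRO families by a symbol or synonym with a number. The names matched 53 genes, of which 46 had a probe set assigned to exactly 1 gene, out of 17905 genes with such a probe set. A gene with several was represented by the brightest of them, by mean log2 signal over the arrays. No gene carried a FRO or FER name, and YSL2, YSL3, YSL17, ZIP9, ZIP10, MTP8 and HMA9 matched by name without a probe set of 1 gene. The probe sets of 36 genes passed the filter on dim probe sets and were tested (a mean log2 signal at or above the median of all, a signal of 49.4), and those of 10 did not. Whether a gene passed can depend on the genotype in which its signal is high, as with ZIP3 below.

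RNA came from shoots of hydroponically grown rice and was measured on 12 Affymetrix arrays, with 3 biological repeats for each of 4 genotypes. These were Nipponbare as the wild type (WT), phr1 and phr3 as mutants of 1 gene each, and the triple mutant phr123, in which PHR1, PHR2 and PHR3 are all mutated. The labels give neither the alleles nor the number of lines, and no cultivar for the mutants. All plants had grown for 14 days with 200 µM phosphate and then for 7 days without it, so every group was phosphate-starved, and plants kept on phosphate were not analysed here. Values are MAS5 signals on a linear scale, scaled by the authors to 1 trimmed mean on every array, and they are compared within a gene only, since signals of different probe sets are not on 1 scale.

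Iron, zinc, manganese and copper are needed in small amounts and are toxic in excess, so plants control their uptake, movement and storage. ZIP, IRT and NRAMP proteins carry divalent metal ions across membranes towards the cytosol. Nicotianamine synthases (NAS) make the chelator nicotianamine, nicotianamine aminotransferase (NAAT) starts its conversion to the phytosiderophore deoxymugineic acid, and YSL proteins transport metals bound to these chelators. HMA ATPases, MTP proteins and VIT proteins move metals out of the cytosol, into vacuoles or towards the xylem. PHR proteins belong to the MYB transcription factors and activate genes of the phosphate starvation response, and phosphate and iron nutrition are known to influence each other in plants.

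The labels name leaf as the tissue while the protocol names shoots. The leaf markers CAB2R, rca and rbcS had signals of 41319 or more on all 12 arrays. Among the root markers, Lsi2 ran from 1.4 to 69.6, PT11 from 1.4 to 57.3, AMT1-2 from 40.8 to 148.5 and NRT2.2 from 12.5 to 215.9. Lsi1, a silicon transporter gene of roots, ran from 810.1 to 1225. The summed leaf markers were 183092 to 214830 in phr123 and 260649 to 263008 in WT, with no overlap, and the summed root markers overlapped (1018.6 to 1384 and 1040.7 to 1283). Lsi1 made up most of the root sum, with a mean of 1012 of 1199 in phr123 and 914 of 1126 in WT. The GAPDH control, whose probe sets at both ends of the transcript report on RNA integrity, had a log2 signal higher at the 3' end by 1.69 ± 0.135 in phr123 and by 2.35 ± 0.144 in WT (mean ± SD, n = 3). An exact 2-sided permutation test gave p = 0.1, which is the minimum possible with these group sizes. The lowest GAPDH value of all, 1.36, was that of a phr3 array. The second such control, Cyph, overlapped between phr123 (0.704 to 1.55) and WT (0.84 to 1.02). The leaf markers and the GAPDH measure differed between phr123 and WT, and their part in the differences of the metal genes was not tested. In whole shoots, fewer cells of a type and less RNA per cell cannot be told apart.

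The targeted genes were read as a check of the labels. The PHR2 signal was 18.3, 43.8 and 24.3 in the phr123 replicates and 1645 to 2107 on the other 9 arrays. PHR1 had 404, 514 and 559.5 in phr1 and 569, 753 and 811 in phr123, below the 877, 1096 and 1154 of WT. PHR3 had 57.7, 119 and 94.5 in phr3 and 462, 469 and 387 in WT, but 1187, 173 and 118 in phr123. The array labelled phr123 replicate 1 thus had more PHR3 signal than any WT array, and it stands apart in several values below. The counts for the triple mutant, and the differences from WT of the genes that passed, are therefore also given without it.

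In phr123, 9 of the 36 tested metal genes were higher than in WT and 7 were lower, and 20 did not pass the test. The genes that rose were ZIP8, ZIP3, YSL13, NRAMP3, YSL16, YSL9, NAAT1, ZIP6 and IRO3, and those that fell were NRAMP5, YSL8, HMA5, ZIP5, NRAMP6, VIT1 and YSL6. The 16 calls were 44.4% of the tested metal genes, beside 41.5% of all 28597 probe sets tested (20.5% higher and 21.0% lower), so the share lay near that of the array as a whole. The median log2 difference was 0.098 over the metal genes and 0.016 over all probe sets tested. A call together with at least a 2-fold change was found for 9 metal genes (25%) and for 17.0% of all, and for 0 metal genes in phr1 and 0 in phr3 (0.308% and 0.724% of all). ZIP3 is among the 16 calls and among the 9 at 2-fold or more. It passed the filter on dim probe sets only through its signal in phr123, so its call is no support for either count. The same 16 genes passed without the array labelled phr123 replicate 1, where 38.0% of all probe sets did. The log2 differences from WT were then 2.48 for ZIP8, 2.70 for ZIP3, 1.85 for YSL13, 1.39 for NRAMP3, 1.25 for YSL16, 1.07 for YSL9, 0.48 for NAAT1, 0.88 for ZIP6 and 0.70 for IRO3. Among the genes that fell they were -2.07 for NRAMP5, -1.15 for YSL8, -0.92 for HMA5, -0.92 for ZIP5, -0.73 for NRAMP6, -0.46 for VIT1 and -0.44 for YSL6. With arrays centred on their medians, which moved the median of all probe sets from 0.016 to 0.11, 9 metal genes were higher and 4 lower.

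**Figure D1:**
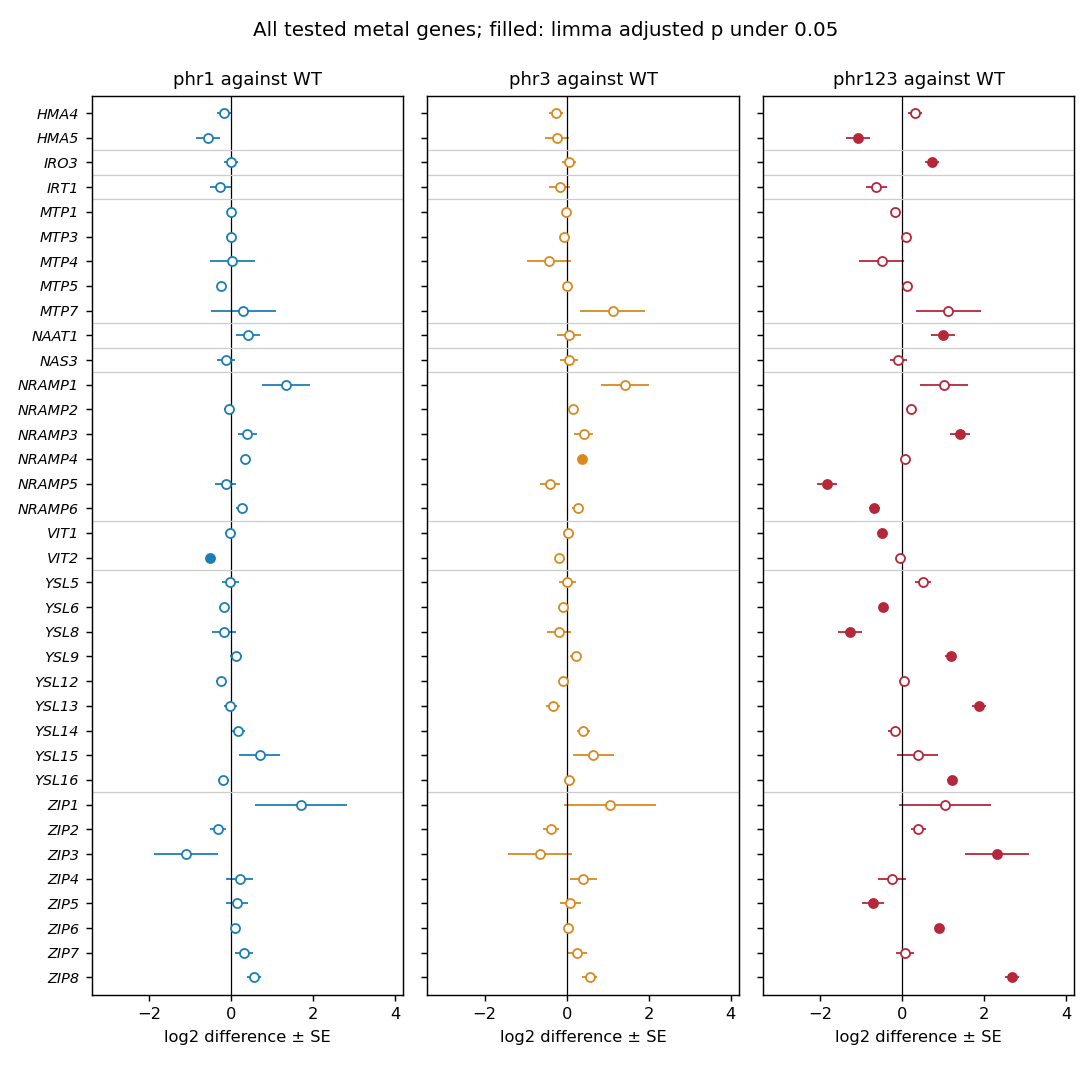
Log2 difference from WT (x axis, mean ± SE from the fit of all 12 arrays, 3 per genotype) of the 36 tested metal genes (rows, grouped by family) in phr1, phr3 and phr123; filled points passed the test. Of the filled points, 1 lies in the phr1 panel, 1 in the phr3 panel and 16 in the phr123 panel.

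Of 8 tested ZIP genes, 3 rose and 1 fell in phr123 (50%, beside 41.5% of all probe sets tested). The 3 include ZIP3, whose call is no support for this share. The annotation also lists ZIP1 as a name of the gene called ZIP8 here, and ZIP2 as a name of ZIP5. It lists ZIP3 and ZIP7A as names of ZIP7. The names used for these genes were chosen by hand, and the genes called ZIP1, ZIP2 and ZIP3 here are separate entries. ZIP8, a zinc transporter gene induced by zinc deficiency in rice, had signals of 339, 487 and 499.5 in WT, 595, 612 and 725 in phr1, 635, 636 and 655 in phr3 and 3636, 2485 and 2372 in phr123. All 3 phr123 arrays lay far above the other 9, and the arrays of both single mutants also lay above those of WT. The log2 difference from WT was 2.67 (SE 0.176, limma adjusted p = 3.67e-08) in phr123. It was 0.56 in phr1 and 0.56 in phr3 (adjusted p = 0.218 and 0.161), which did not pass. The difference of phr123 was 2.11 against phr1 and 2.11 against phr3 (adjusted p = 3.55e-07 and 3.99e-07), and leaving out the array labelled phr123 replicate 1 gave 2.48 against WT.

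ZIP3, a zinc transporter gene that acts in rice nodes, had 77.2, 32.6 and 64.1 in WT and 154, 354 and 355 in phr123. In phr1 it had 6.2, 48.8 and 54.8 and in phr3 40.4, 47.2 and 21.4. The phr123 arrays were above the other 9. The reporter level, the 95th percentile of control probe sets for sequences foreign to rice on the same array, was not exceeded by 1 WT array or by any array of phr1 and phr3. Against these reporter levels phr123 was at least 3.55-fold higher than phr1 and at least 4.8-fold higher than phr3, with no test given, since the gene passed the filter only through phr123 (mean log2 signal 5.18 on the other 9 arrays). Against WT the log2 difference was 2.30 (SE 0.78, limma adjusted p = 0.029), a call that is no support for the same reason. This call ended without either WT replicate 2 or 3 or either phr123 replicate 2 or 3 (adjusted p between 0.0534 and 0.101).

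ZIP6, a ZIP transporter gene, had 1876, 1819 and 1828 in WT and 3544, 3427 and 3332 in phr123. These arrays were close together within each genotype, and phr123 lay above all 9 others, with 1953 to 1993 in phr1 and 1708 to 2078 in phr3. The log2 difference was 0.90 (SE 0.0841, limma adjusted p = 1.1e-06). ZIP5, which takes up zinc in rice roots, went the other way, with 272, 337 and 380.2 in WT and 265, 156 and 190.4 in phr123. Its phr123 arrays lay below those of WT and phr3 and overlapped phr1, and the highest was close to the lowest WT array. The log2 difference of -0.71 (SE 0.267, limma adjusted p = 0.0452) ended without either WT replicate 2 or 3, phr1 replicate 2, any 1 phr3 replicate or either phr123 replicate 2 or 3 (adjusted p between 0.0537 and 0.168). It also ended under quantile normalization, median centring, no filter on dim probe sets and eBayes moderation with no trend (adjusted p from 0.0567 to 0.0717).

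The other 4 ZIP genes did not pass against WT. ZIP2 had 412, 556 and 426 in WT and 601, 640 and 575 in phr123, where every array was higher, with a log2 difference of 0.39 (adjusted p = 0.111). ZIP2 did pass against the single mutants, with 0.71 against phr1 and 0.77 against phr3 (adjusted p = 0.00696 and 0.00421). ZIP4, a zinc transporter gene, had 379, 203 and 204 in WT and 391, 133 and 181 in phr123, and the genotypes overlapped (-0.25, adjusted p = 0.602). The high phr123 value was the array labelled replicate 1, and with it left out the difference from WT was -0.69 (adjusted p = 0.059). ZIP4 then passed as lower than phr1 and phr3 (-0.90 and -1.10, adjusted p = 0.0164 and 0.0052), where with all arrays it had -0.46 against phr1 and -0.65 against phr3 (adjusted p = 0.299 and 0.141). ZIP7 and ZIP1 had log2 differences of 0.0692 and 1.05 (adjusted p = 0.838 and 0.496), and ZIP1 was near the reporter level, with a WT array at 2.7. IRT1, the ferrous iron uptake transporter gene, had 159, 169 and 189.9 in WT and 115, 108 and 112 in phr123. The phr123 arrays were the lowest of all 12, but the difference of -0.63 did not pass (adjusted p = 0.0614), except without phr3 replicate 2 (adjusted p = 0.0462) and with eBayes moderation with no trend (adjusted p = 0.0188). IRT2 was too dim to be tested, with 2.1 to 87.4 over all arrays.

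The NRAMP family held both directions in phr123. NRAMP5, the main manganese uptake transporter gene of rice roots, had 815, 679 and 704 in WT, 725, 751 and 540.3 in phr1, 427, 572 and 698 in phr3 and 286, 222 and 137 in phr123. The 3 phr123 arrays were the lowest of the 12 and did not overlap any other genotype. NRAMP5 changed by -1.83 (SE 0.246, limma adjusted p = 3.63e-05) on the log2 scale, and the difference of phr123 was -1.69 against phr1 and -1.43 against phr3 (adjusted p = 7.41e-05 and 0.000329). In the single mutants it was -0.14 in phr1 and -0.40 in phr3 (adjusted p = 0.913 and 0.578).

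NRAMP3, a manganese transporter gene that acts in rice nodes, went up, with 200.3, 354 and 175 in WT and 629, 624 and 591 in phr123. The phr123 arrays agreed closely and lay above the other 9, of which phr1 had 260.4 to 378 and phr3 288 to 354. NRAMP3 differed from WT by 1.41 (SE 0.234, limma adjusted p = 0.000232) on the log2 scale, and that of phr123 was 1.01 against phr1 and 0.99 against phr3 (adjusted p = 0.00307 and 0.00363). The gene annotated as NRAMP6 (Entrez gene 4352640) had 524, 503 and 519 in WT, 552 to 652 in phr1, 549 to 733 in phr3 and 342, 306 and 316 in phr123. Its phr123 arrays were below all others, while both single mutants lay above WT without passing the test. Their differences were 0.25 in phr1 and 0.27 in phr3 (adjusted p = 0.55 and 0.442). The log2 difference in phr123 was -0.68 (SE 0.135, limma adjusted p = 0.000925), and that of phr123 was -0.94 against phr1 and -0.96 against phr3 (adjusted p = 6.57e-05 and 5.79e-05). NRAMP1 and NRAMP2 did not pass in any mutant (adjusted p from 0.188 to 0.931). The log2 differences of NRAMP1 from WT were 1.34 in phr1, 1.42 in phr3 and 1.01 in phr123, with 2 of its WT arrays at or below the reporter level.

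**Figure D2:**
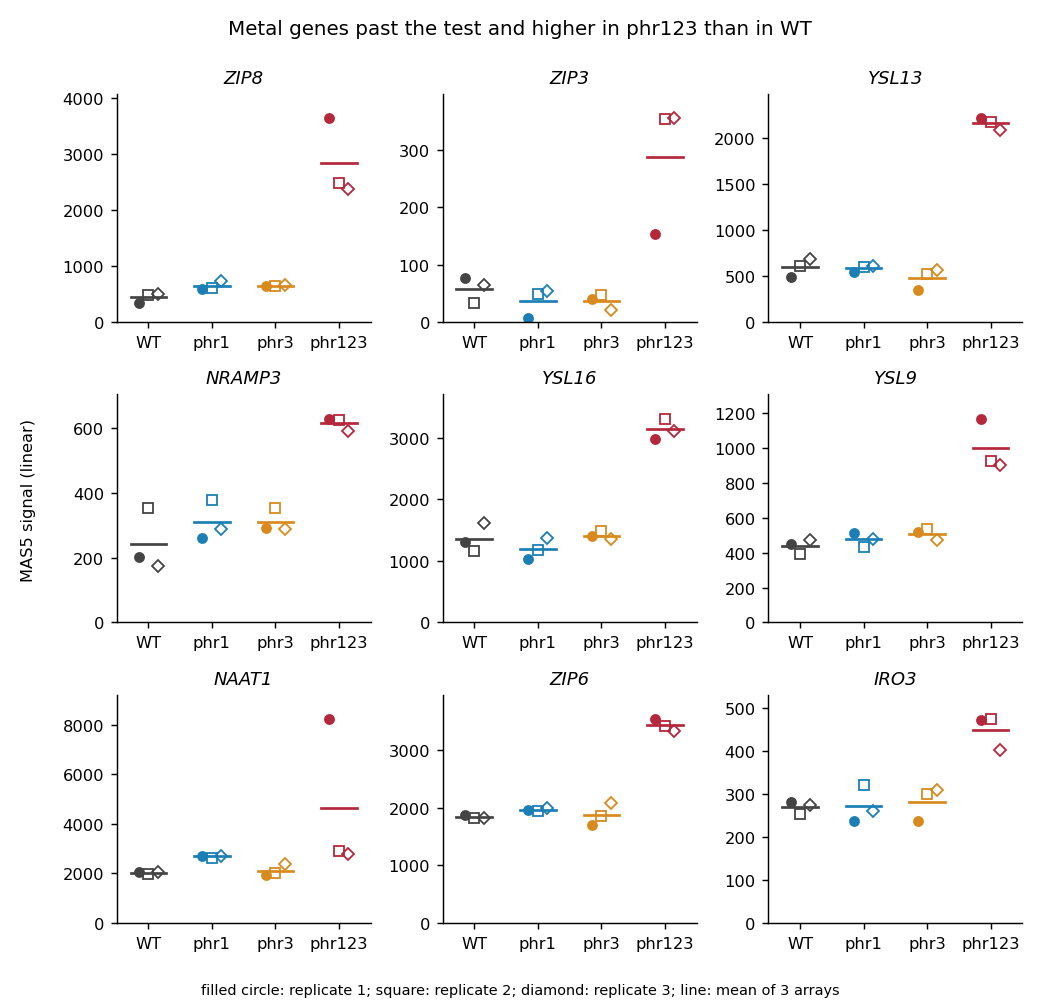
MAS5 signal (y axis, linear from 0) of the 9 metal genes that rose in phr123, in each of the 12 arrays by genotype (x axis, 3 arrays each, the line is their mean). In all 9 panels the phr123 arrays lie above the WT arrays; NAAT1 in the array labelled phr123 replicate 1 reaches 8226 against 2895 and 2767.

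Among 9 tested YSL genes, 3 rose and 2 fell in phr123 (55.6%, beside 41.5% of all probe sets tested). YSL13, which takes part in iron distribution in rice shoots, had 491, 606 and 689 in WT, 542, 597 and 613 in phr1, 352, 520.4 and 563 in phr3 and 2214, 2171 and 2086 in phr123. No array of another genotype came near the phr123 level, and the 3 phr123 arrays were nearly equal. The log2 difference was 1.87 (SE 0.168, limma adjusted p = 7.33e-07), and that of phr123 was 1.89 against phr1 and 2.2 against phr3 (adjusted p = 6.8e-07 and 1.74e-07). YSL13 in the single mutants had -0.016 in phr1 and -0.33 in phr3 (adjusted p = 0.986 and 0.462).

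YSL16, a transporter gene for copper bound to nicotianamine, had 1302, 1158 and 1620.1 in WT and 2987, 3309.7 and 3112 in phr123, beside 1032 to 1367 in phr1 and 1354 to 1478 in phr3. YSL9, an iron chelate transporter gene, had 453, 389.8 and 473 in WT and 1169, 926 and 906 in phr123, beside 431 to 516 in phr1 and 474 to 536 in phr3. For both genes all phr123 arrays lay above the other 9, and for YSL9 the phr3 arrays also lay above WT. The log2 difference of YSL16 was 1.22 (SE 0.128, limma adjusted p = 3.48e-06). That of YSL9 was 1.18 (SE 0.137, limma adjusted p = 8.73e-06), much the same size, and 1.07 without the array labelled phr123 replicate 1. In the RefSeq gene order YSL9 and YSL16 lie near each other with 3 genes between them.

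YSL6 and YSL5, and YSL13 and YSL12, are pairs of direct neighbours in this order whose members had unlike values in phr123. YSL6, a manganese transporter gene of rice leaves, had 8140.1, 8791 and 8198 in WT and 5729.9, 6411 and 5938 in phr123, and lay below all 9 other arrays (log2 difference -0.48, SE 0.0865, limma adjusted p = 0.000486). After median centring that call ended (adjusted p = 0.0672). Its neighbour YSL5 had 348, 376 and 312 in WT and 518, 494 and 461 in phr123, higher on every array, with a difference of 0.51 that did not pass (adjusted p = 0.0521). YSL5 did pass without phr1 replicate 1, phr3 replicate 1 or phr3 replicate 2, with the stricter filter, the offset, the replicate block and in a fit of phr123 and WT alone (adjusted p from 0.0157 to 0.049). YSL12, next to YSL13, had 1572 to 1808 in WT and 1617 to 1791 in phr123, which overlapped (0.0322, adjusted p = 0.847).

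YSL8 had 211, 147 and 177 in WT and 61.3, 75.7 and 82.9 in phr123. Its phr123 arrays were the lowest of the 12 and close to the reporter level. YSL8 differed from WT by -1.28 (SE 0.291, limma adjusted p = 0.0027) on the log2 scale. YSL7, next to it, was too dim to be tested, with 96.7, 77.2 and 57.2 in WT and 51.5, 5.8 and 12.2 in phr123, and all its phr123 arrays lay at or below the reporter level and below those of WT. YSL14 and YSL15 did not pass against WT (-0.19 and 0.38, adjusted p = 0.407 and 0.585). YSL15 takes up iron bound to deoxymugineic acid in roots, and its signals ran from 32.8 to 206 with overlap between phr123 and every other genotype.

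Chelator synthesis was represented by NAAT1 and NAS3. NAAT1 had 2072, 1964 and 2045 in WT, 2715, 2638 and 2700.2 in phr1, 1938, 1998 and 2396 in phr3 and 8226, 2895 and 2767 in phr123. All phr123 arrays lay above the other 9, but the array labelled replicate 1 was far above its own group. The log2 difference was 0.99 (SE 0.292, limma adjusted p = 0.0135). It fell to 0.48 without that array (adjusted p = 0.00183), less than the value with all arrays by over 1.5 times. In phr1 every array was also above WT, with a difference of 0.41 that did not pass with all arrays (adjusted p = 0.696) and did pass once the array labelled phr123 replicate 1 was left out (adjusted p = 0.0482).

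NAS3, a nicotianamine synthase gene, had 5156, 4706 and 4749 in WT and 5349.6, 4366 and 4089 in phr123. Its genotypes overlapped, and it did not pass in any mutant (-0.12, 0.0558 and -0.0904 in phr1, phr3 and phr123, adjusted p from 0.782 to 0.961). NAS1 and NAS2, adjacent genes of closely related sequence whose signals may not be separable, were too dim to be tested, with 22.3 to 114 and 1.5 to 107. Over the 10 genes below the filter (HMA2, IRT2, NAS1, NAS2, YSL1, YSL4, YSL7, YSL10, YSL11 and YSL18) signals ran from 0.8 to 116, and 95 of 120 array values lay at or below the reporter level.

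Of the genes that move metals out of the cytosol, HMA5 and VIT1 fell in phr123. HMA5, a copper ATPase gene that loads copper into the xylem, had 239.8, 240 and 228 in WT, 120.1, 223 and 154 in phr1, 274, 168 and 172 in phr3 and 88.4, 107 and 147 in phr123. The phr123 arrays lay below WT and phr3 but overlapped phr1, whose arrays were also below WT. The log2 difference from WT was -1.08 (SE 0.289, limma adjusted p = 0.00784), and that of phr123 was -0.53 against phr1 and -0.84 against phr3 (adjusted p = 0.166 and 0.0318). The call against phr3 ended without the array labelled phr123 replicate 1, phr3 replicate 1 or phr123 replicate 2 (adjusted p between 0.0762 and 0.146), and under quantile normalization, median centring, no filter and a fit of both genotypes alone (adjusted p from 0.058 to 0.116).

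VIT1, which loads iron and zinc into the vacuole, had 1873, 2379.7 and 1743 in WT and 1349, 1408 and 1475 in phr123. All phr123 arrays were below the other 9. VIT1 differed from WT by -0.49 (SE 0.13, limma adjusted p = 0.00754) on the log2 scale, and after median centring it did not pass (adjusted p = 0.114). Its relative VIT2 had 10989.9, 9509.8 and 9470.4 in WT and 9084, 9699.9 and 10251 in phr123, which overlapped (-0.044, adjusted p = 0.771). HMA4, a vacuolar copper ATPase gene, had 744, 1061 and 842 in WT and 1434, 910.1 and 984 in phr123, with the array labelled replicate 1 highest (0.32, adjusted p = 0.175). None of the 5 tested MTP genes passed against WT with limma in phr123. An unadjusted p under 0.05 was found for 1, MTP1, beside 13850 of all 28597 probe sets. MTP5, named by the rule for families without a call, had 5315 to 6070.4 in WT and 5632 to 6436 in phr123. MTP1, a vacuolar zinc transporter gene, had 2883, 3027 and 3042 in WT and 2700.4, 2554 and 2692 in phr123, lower on every array, with a difference of -0.17 (adjusted p = 0.0849, and 0.0394 under quantile normalization).

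IRO3, a bHLH regulator gene of the iron deficiency response in rice, had 281, 255 and 275 in WT, 236, 322 and 260 in phr1, 238, 299.6 and 310.1 in phr3 and 473, 475 and 403 in phr123. Its phr123 arrays were above the other 9, which overlapped among themselves. The log2 difference was 0.73 (SE 0.17, limma adjusted p = 0.00302), and that of phr123 was 0.73 against phr1 and 0.68 against phr3 (adjusted p = 0.00307 and 0.0053). The annotation also lists OsIRO2 as a synonym of this gene, and no other gene was matched as IRO2.

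**Figure D3:**
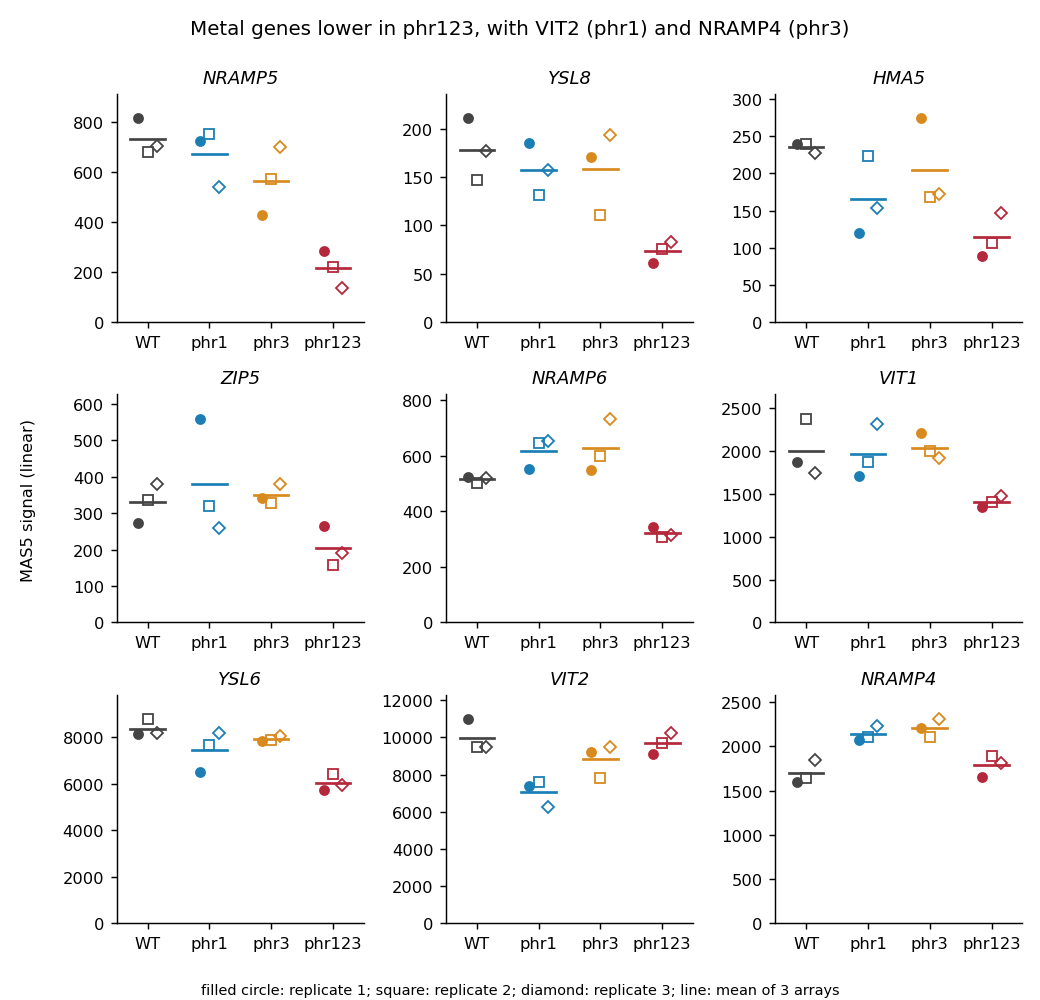
MAS5 signal (y axis, linear from 0) in each of the 12 arrays by genotype (x axis, 3 arrays each, the line is their mean) of the 7 metal genes that fell in phr123, followed by VIT2 and NRAMP4. In the first 7 panels the phr123 arrays lie below the WT arrays; VIT2 is lowest in phr1, and NRAMP4 is higher in phr1 and phr3 than in WT.

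Few of these genes passed the test against WT in the single mutants. Not passing with 3 arrays per genotype does not show that a gene was unchanged. In phr1, 6 of 36 had an unadjusted limma p under 0.05, beside 2980 of all 28597 probe sets tested. After adjustment 0 of the 36 were higher and 1 was lower, which is 2.78%, beside 0.934% of all (0.448% higher and 0.486% lower). The gene was VIT2, with 7384, 7575 and 6234 in phr1 against 10989.9, 9509.8 and 9470.4 in WT and 9196, 7798 and 9496 in phr3. Its phr1 arrays were below all other arrays (log2 difference -0.50, SE 0.101, limma adjusted p = 0.0318). The call ended without any 1 WT replicate, any 1 phr1 replicate or phr123 replicate 2 (adjusted p between 0.0534 and 0.136), and with the replicate block, eBayes moderation with no trend and fitting only the phr1 and WT arrays (adjusted p from 0.0558 to 0.167). VIT2 was also higher in phr123 than in phr1 (0.46, adjusted p = 0.00218).

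In phr3, 4 of 36 had an unadjusted limma p under 0.05, beside 3530 of all 28597 probe sets tested. After adjustment 1 of the 36 was higher and 0 were lower, again 2.78%, beside 1.99% of all (1.26% higher and 0.731% lower). The gene was the one annotated as NRAMP4 (Entrez gene 4324486), with 1594, 1645 and 1850.4 in WT, 2078, 2104 and 2230.2 in phr1, 2205, 2107 and 2310 in phr3 and 1654, 1893 and 1814 in phr123. Arrays of both single mutants lay above WT and phr123, and they overlapped each other. The difference from WT was 0.38 in phr3 (SE 0.0895, limma adjusted p = 0.045) and 0.34 in phr1, which did not pass (adjusted p = 0.122). The call in phr3 ended without either WT replicate 1 or 2, either phr1 replicate 2 or 3, any 1 phr3 replicate or either phr123 replicate 2 or 3 (adjusted p between 0.0535 and 0.167). Median centring of the arrays ended it too, as did no filter, eBayes moderation with no trend, the replicate block and fitting only the phr3 and WT arrays (adjusted p from 0.0524 to 0.573). The other 4 probe sets of this gene did not pass, with differences from -0.51 to 0.23 in phr3, so the probe sets disagreed.

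Groups that did not overlap WT were found for 10 of 36 metal genes in phr1 (27.8%, beside 15.8% of all probe sets tested), 7 in phr3 (19.4%, beside 18.8%) and 21 in phr123 (58.3%, beside 53.7%). The phr123 arrays stood apart from all 9 others in 18 genes (50%, beside 37.4%), 11 above and 7 below. ZIP3 was among the 11 and among the 21 not overlapping WT, and is no support for either count. The 3 comparisons share the WT arrays. The median log2 difference of the metal genes was -0.0094 in phr1 and 0.046 in phr3, beside 0.009 and 0.012 over all probe sets tested.

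Set directly against the single mutants, phr123 was higher in 14 metal genes and lower in 7 compared with phr1 (58.3%, beside 42.8% of all, 20.8% higher and 22.0% lower), and higher in 11 and lower in 9 compared with phr3 (55.6%, beside 41.0%, 19.1% higher and 21.9% lower). With arrays centred on their medians these splits were 17 and 3 against phr1 and 12 and 3 against phr3, beside 43.2% and 36.5% of all probe sets called. This centring also moved the median log2 difference of all probe sets tested. It went from -0.013 to 0.277 against phr1 and from -0.0267 to 0.147 against phr3, so the shift was not confined to the metal genes. Its part in these splits was not tested. Under quantile normalization the split against phr1 was 12 and 8. Without the array labelled phr123 replicate 1 the counts were 18 and 18, beside 38.9% and 37.2% of all probe sets. Of these, 17 and 17 were among those called with it. ZIP3 counts as higher in each of these splits and is no support for them. Between phr3 and phr1, limma called 0 of 36, beside 1.68% of all probe sets called (0.997% higher and 0.678% lower). An unadjusted p under 0.05 was found for 2 of the 36 and for 3875 of all 28597.

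Some genes passed against a single mutant and not against WT. HMA4 was higher in phr123 by 0.49 against phr1 and 0.57 against phr3 (adjusted p = 0.0381 and 0.0184), and leaving out the array labelled phr123 replicate 1 gave 0.29 and 0.37 (adjusted p = 0.182 and 0.0902). The call against phr1 ended without the array labelled phr123 replicate 1 or either phr1 replicate 1 or 2 (adjusted p between 0.0814 and 0.182), and that against phr3 ended without the array labelled phr123 replicate 1 or either phr3 replicate 1 or 3 (adjusted p between 0.0553 and 0.0902). The call of HMA4 against phr1 also ended with quantile normalization, no filter, no eBayes trend, the replicate block and a fit of both genotypes only (adjusted p between 0.0529 and 0.0693). MTP5 was higher than in phr1 by 0.34 (adjusted p = 0.00671). YSL14 was lower than in phr3 (-0.60, adjusted p = 0.0101), a call that ended without phr3 replicate 3 (adjusted p = 0.0546) and after median centring (adjusted p = 0.104). The differences of YSL12 (0.29) and YSL5 (0.53) from phr1 passed narrowly (adjusted p = 0.0489 and 0.0452). That of YSL12 ended without the array labelled phr123 replicate 1, any 1 WT replicate, any 1 phr1 replicate, phr3 replicate 1 or either phr123 replicate 2 or 3 (adjusted p between 0.0527 and 0.15), and with quantile normalization, no filter, no eBayes trend and the replicate block (adjusted p between 0.0514 and 0.135). That of YSL5 ended without the array labelled phr123 replicate 1, any 1 WT replicate, either phr1 replicate 1 or 2, phr3 replicate 3 or either phr123 replicate 2 or 3 (adjusted p between 0.0518 and 0.174), and with no filter and no eBayes trend (adjusted p between 0.0583 and 0.08).

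NRAMP4 was lower in phr123 than in both single mutants, with log2 differences of -0.26 from phr1 and -0.31 from phr3 (adjusted p = 0.0305 and 0.0135). After median centring the first turned to 0.0296, and the mean over all its probe sets turned the second to 0.00226. The call against phr1 ended without the array labelled phr123 replicate 1, either phr1 replicate 2 or 3 or phr123 replicate 3 (adjusted p between 0.0572 and 0.12), and with no filter, no eBayes trend, a fit of both genotypes only and the mean of its probe sets (adjusted p between 0.05 and 0.199). The call against phr3 ended without the array labelled phr123 replicate 1 or phr3 replicate 3 (adjusted p between 0.051 and 0.0614), and with median centring (adjusted p = 0.525). ZIP5 was lower too, with -0.85 and -0.81 (adjusted p = 0.0191 and 0.0258), calls that ended without phr1 replicate 1 or either phr123 replicate 2 or 3 (adjusted p between 0.0506 and 0.0953) and without either phr3 replicate 1 or 3 or either phr123 replicate 2 or 3 (adjusted p between 0.054 and 0.107). The ZIP5 calls also ended with median centring and a fit of both genotypes only (adjusted p between 0.0585 and 0.0879) against phr1, and with median centring (adjusted p = 0.0634) against phr3. YSL6 had -0.30 against phr1 and -0.40 against phr3 (adjusted p = 0.0114 and 0.002), the first of which ended without phr1 replicate 3 (adjusted p = 0.0546). After median centring neither YSL6 call held (-0.0128 and -0.22, adjusted p = 0.957 and 0.285).

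NAAT1 passed against phr3 (0.94, adjusted p = 0.0184), but not without either phr3 replicate 1 or 2 (adjusted p between 0.0553 and 0.0566), nor with no eBayes trend and a fit of both genotypes only (adjusted p between 0.0523 and 0.0683). Against phr1 NAAT1 had 0.59 (adjusted p = 0.122), and passed after median centring (adjusted p = 0.0324). It also passed without phr123 replicate 2 or 3 (adjusted p = 0.0453 and 0.0318), fits that keep the array labelled phr123 replicate 1. Leaving out the array labelled phr123 replicate 1 gave NAAT1 differences of 0.43 from phr3 and 0.0764 from phr1 (adjusted p = 0.00423 and 0.604).

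Other genes of metal homeostasis were counted from a list of names. Metallothioneins, small cysteine-rich proteins that bind zinc and copper, had 7 tested genes, of which 2 were higher and 4 lower in phr123 than in WT (85.7%, beside 41.5% of all probe sets tested). MT4A had 15269, 11626 and 13937 in WT and 45626, 30692 and 28506 in phr123, well above the other 9 arrays and highest in the array labelled replicate 1 (log2 difference 1.34, limma adjusted p = 2.94e-05, and 1.13 without that array). MT1B had 2262, 1883 and 1911 in WT, 3973, 1082 and 898 in phr1, 529.7, 1186 and 1333 in phr3 and 579, 455 and 490 in phr123. Its phr123 arrays lay below WT and phr1 but overlapped phr3, whose arrays also lay below WT, and phr1 replicate 1 was the highest of all (log2 difference of phr123 from WT -1.99, adjusted p = 0.00233). MT4C had 406, 377 and 433 in WT and 161, 208 and 124 in phr123, below all other arrays (-1.33, adjusted p = 0.000158).

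The remaining metallothionein changes were small. MT1A was higher (0.29, adjusted p = 0.0361), a call that ended without either WT replicate 2 or 3 or either phr123 replicate 2 or 3 (adjusted p between 0.0693 and 0.136), and with no filter, no eBayes trend and the replicate block (adjusted p between 0.0536 and 0.0873). MT2B (-0.29, adjusted p = 0.0277) and MT2C (-0.28, adjusted p = 0.0261) were lower, and both calls ended without phr123 replicate 2, phr123 replicate 3, WT replicate 1 or WT replicate 3 (adjusted p from 0.0797 to 0.113). Both also ended with median centring, no filter and no eBayes trend (adjusted p between 0.0684 and 0.234), and MT2C with the mean of its probe sets (adjusted p = 0.217). Under quantile normalization these genes shifted upwards: MT2B and MT2C had -0.011 and -0.000708 (adjusted p = 0.945 and 0.996), and MT2A passed as higher (0.26, adjusted p = 0.0225) where it had 0.00837 otherwise. None of the 7 passed with limma in phr1 or phr3, where 0 and 2 had an unadjusted p under 0.05, beside 2980 and 3530 of all 28597.

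**Figure D4:**
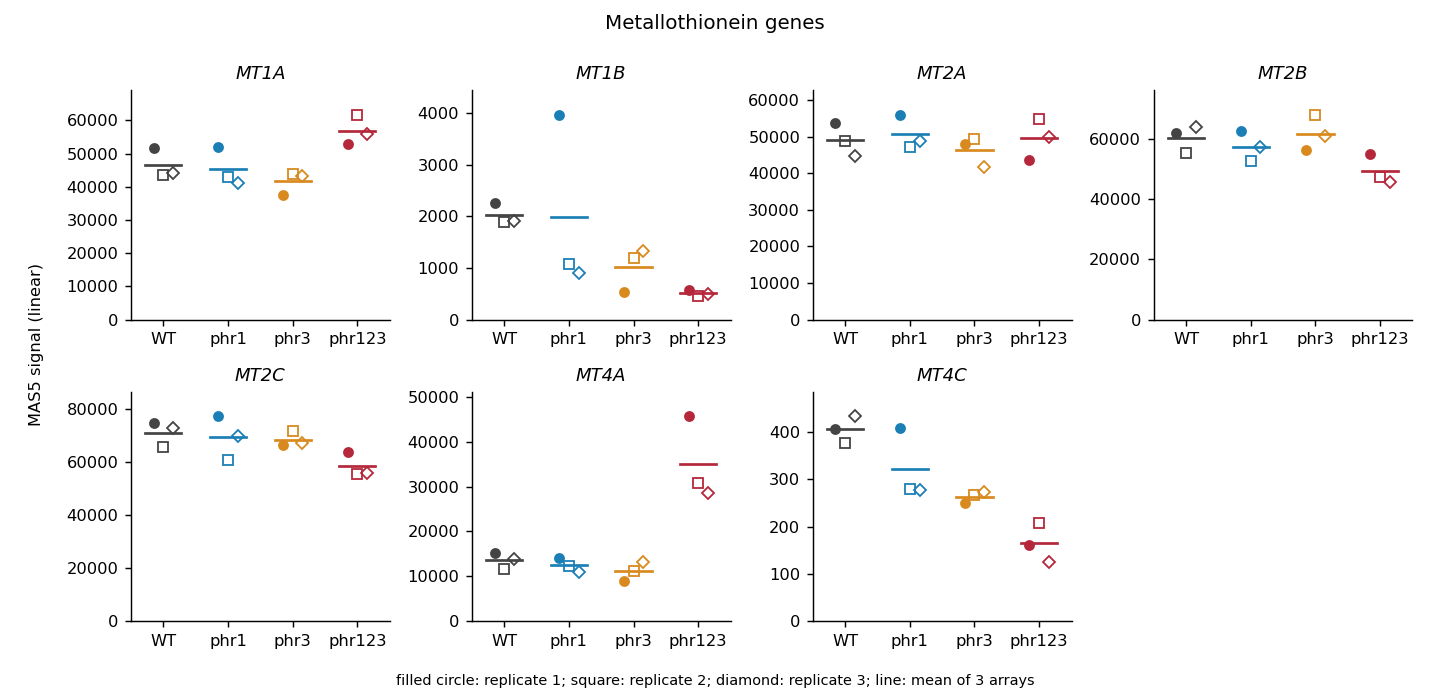
MAS5 signal (y axis, linear from 0) of the 7 tested metallothionein genes in each of the 12 arrays by genotype (x axis, 3 arrays each, the line is their mean). MT4A is highest in phr123, MT4C is lowest there, and MT1B spreads from 898 to 3973 within phr1.

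IDEF1, a transcription factor gene that activates iron deficiency genes in rice, was the 1 iron regulator matched besides IRO3. It had 818, 701 and 874 in WT, 748 to 845 in phr1, 858 to 981 in phr3 and 640.2, 505 and 597 in phr123. The phr123 arrays were below the other 9 (log2 difference -0.46, limma adjusted p = 0.00895), a call that ended without phr123 replicate 2 (adjusted p = 0.0501) and after median centring (adjusted p = 0.114). The S-adenosylmethionine synthetase genes SAM1 and SAM2, which supply the precursor of nicotianamine, had -0.0207 and -0.13 (adjusted p = 0.862 and 0.196), and SAM1 turned to 0.18 under quantile normalization (adjusted p = 0.0437). Genes listed as tom1 and tom2 matched the names of siderophore exporters by letters alone, and no role is given to them. In phr123, tom2 was higher (1.05, adjusted p = 5.17e-05) and tom1 had 0.20 (adjusted p = 0.0589). That of tom1 passed when WT replicate 2 or the array labelled phr123 replicate 1 was left out and under quantile normalization (adjusted p from 0.00834 to 0.0484). None of these 5 genes passed with limma in phr1 or phr3, where 0 and 1 had an unadjusted p under 0.05, beside 2980 and 3530 of all 28597.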

How the data were processed

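The deposited values are intensity values on a linear scale, made with MAS5 by the authors per the submitters' processing notes (version not given in the sources used here). Their trimmed mean was 500.1 on every array. Of 57381 probe sets, 123 array controls and 64 reporter controls were left out, and 8 zeros were set to 0.1. Log2 signals of all 12 arrays were fitted with limma 3.58.1 in R 4.3.3, with 1 mean per genotype (8 residual degrees of freedom) and eBayes with a trend. Benjamini-Hochberg adjustment ran over the 28597 probe sets at or above the median mean log2 signal, with a threshold of 0.05, and the fit was tested on simulated data. The reporter level used 61 of the reporter controls, because 3 for U89963 were left out after a U89963 signal in phr123 was seen. Genes were named from the platform annotation, and neighbours came from RefSeq (ASM3414082v1). Metal genes that passed in at least 1 mutant against WT are named, together with a set of family members listed by name and the brightest member of a family without a call; genes named outside this rule were chosen after their values were seen. The members and lists were chosen with earlier results of these data known. Alternatives covered scaling, filter, offset, eBayes settings, the replicate block, the genotypes fitted, the probe set rule and leaving out each array. The planned search of promoters for motifs was not run, and no sequences were used here. The number of arrays, 3 per genotype, limits the precision.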

Additional observations from a re-analysis of the deposited data

Results flagged for a closer look

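A reporter control probe set for U89963, which the comparisons of metal genes do not use, had a mean signal of 421.6 in phr123 and 55.5 in WT. Values of the other probe sets for U89963 are not given here. The lowest and highest phr123 arrays were at 373.5 and 458.8, and those of WT were at 13.7 and 119. The means were 58.5 in phr1 and 55.9 in phr3. It was singled out as a signal in data outside the main measurement, and its part in the results was not tested.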

How the results depend on the processing

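Over all 6 comparisons, 6078 of 6293 values recomputed under 22 alternatives stayed on their side of the threshold, 156 no longer passed and 55 newly passed with their direction kept, and 4 that passed either with or without the alternative changed direction. Of the 6078, 5863 kept their sign and 215 changed it while passing in neither setting, from differences of up to 1.70 in size. The 4 were NRAMP4 in phr3 against WT (-0.00543) and in phr123 against phr3 (0.00226), both with the mean of all its probe sets, NRAMP4 in phr123 against phr1 with arrays centred on their medians (0.0296), and SAM1 in phr123 against WT under quantile normalization (0.18); the cause was not tested. The count of metal genes called in phr1 was 1, and 0 with eBayes moderation with no trend, the replicate block or only both genotypes fitted, and 0 to 2 with 1 array left out. In phr3 it was 1, and 0 with median centring, no filter, eBayes moderation with no trend, the replicate block, only both genotypes fitted or the mean of all probe sets, and 0 to 1 with 1 array left out. In phr123 against WT the count was 14 to 17 with 1 array left out, against phr1 17 to 21 and against phr3 16 to 21. Over the same fits of these phr123 comparisons, 36% to 43% of all probe sets tested were called. Steady counts were thus not particular to the metal genes. ZIP3 is counted wherever it passed and is no support for these counts. Arrays of the same replicate number did not deviate together (r from -0.046 to 0.032 over 18 pairs). The numbers were therefore not taken as pairs. With the replicate block the counts were 0, 0 and 17 in phr1, phr3 and phr123. The 17 include ZIP3 and stood beside 40.6% of all probe sets tested. Dim genes near the reporter level, such as ZIP3, have differences of uncertain size.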
